A study of Mus musculus with 9 samples.

Results

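Autophagy and lysosome genes were examined in J1 mouse embryonic stem cells treated with CHIR99021 or AICAR. The genes were chosen by name: every mouse symbol that begins with Atg and a digit, with Atp6v0 or Atp6v1, or that is Cts and a single letter, together with Lamp1, Lamp2, Sqstm1, Ulk1, Ulk2, Becn1, Tfeb, Tfe3, Map1lc3a, Map1lc3b, Gabarap, Gabarapl1 and Mcoln1. Of 75 such symbols in the RefSeq gene table, 71 had a probe on the array, among 20660 genes with a symbol and a probe. Of the 71 genes, 63 could be tested, among 26866 features tested in all. The rule uses names alone, but it was set with earlier results of these data known.

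J1 is an established line of the 129S4/SvJae strain derived from the inner cell mass, and it was grown on gelatin without feeder cells in medium with serum replacement and 1000 U/mL of leukaemia inhibitory factor (LIF), which keeps the cells undifferentiated. Total RNA was measured with Cy3 on Agilent arrays of 1 colour, 3 arrays in each of 3 groups. The groups were cells exposed for 24 h to DMSO as the control, to 3 µM CHIR99021, or to 1 mM AICAR, and all 3 received the same LIF. CHIR99021 inhibits the kinase GSK-3, and AICAR is a cell-permeable compound that activates AMP-activated protein kinase, AMPK. The labels do not say that the replicates are separate cultures, so the p-values rest on the spread among these samples alone, which can be technical.

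In macroautophagy a double membrane grows around cytoplasm, closes to form an autophagosome and fuses with the lysosome, where the content is degraded. The Ulk1 and Becn1 complexes start the membrane, Atg9a vesicles and Atg2 lipid transfer proteins supply it, and a ubiquitin-like conjugation system attaches LC3 and GABARAP proteins to it. The vacuolar proton pump (V-ATPase) acidifies the lysosome for its cathepsin proteases, and the transcription factors Tfeb and Tfe3 bind the CACGTG core of a motif found before many lysosomal genes. AMPK phosphorylates Ulk1, and GSK-3 is among the kinases that phosphorylate Tfeb.

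Between 62.8 and 67.2% of an array's spots were well above background. Over the tested features the arrays correlated at 0.995 to 0.997 within a group and at 0.973 to 0.983 between groups. All 10 embryonic stem cell markers examined were well above background on every array, with a summed signal of 577 to 623 times an array's 75th percentile. Every treatment was hybridised to its own slide, so slide and treatment cannot be told apart. In bulk RNA, fewer cells of a type and less RNA per cell cannot be told apart either.

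The sequences before 4 of these genes are shown because they carry the motif that Tfeb and Tfe3 recognise, in genes of different lysosomal roles. Each is the 250 bases before the gene's start in the RefSeq promoter table of assembly GRCm38.p6, 5′ to 3′ on the gene's strand, with CACGTG in capitals. Ctsd, the aspartic protease of the lysosome, lies on the minus strand at chr7:142387828-142388077. Lamp1, an abundant glycoprotein of the lysosomal membrane, lies on the plus strand at chr8:13158911-13159160. Atp6v1a, the catalytic subunit of the proton pump, lies on the minus strand at chr16:44139260-44139509. Mcoln1, the lysosomal calcium channel, lies on the plus strand at chr8:3500269-3500518.
Ctsd: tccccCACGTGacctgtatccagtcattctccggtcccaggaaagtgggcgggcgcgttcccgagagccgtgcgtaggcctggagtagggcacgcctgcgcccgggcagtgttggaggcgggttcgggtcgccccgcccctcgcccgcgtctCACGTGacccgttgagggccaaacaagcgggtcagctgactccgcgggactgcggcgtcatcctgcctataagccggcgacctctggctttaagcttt
Lamp1: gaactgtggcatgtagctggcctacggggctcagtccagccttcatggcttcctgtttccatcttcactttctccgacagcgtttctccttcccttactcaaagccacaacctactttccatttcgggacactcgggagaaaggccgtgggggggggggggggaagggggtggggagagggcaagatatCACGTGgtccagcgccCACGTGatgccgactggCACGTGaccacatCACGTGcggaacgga
Atp6v1a: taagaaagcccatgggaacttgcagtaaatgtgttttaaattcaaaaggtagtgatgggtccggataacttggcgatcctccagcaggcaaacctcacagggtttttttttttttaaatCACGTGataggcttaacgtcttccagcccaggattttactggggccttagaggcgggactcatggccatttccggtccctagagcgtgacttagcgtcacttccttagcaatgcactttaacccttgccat
Mcoln1: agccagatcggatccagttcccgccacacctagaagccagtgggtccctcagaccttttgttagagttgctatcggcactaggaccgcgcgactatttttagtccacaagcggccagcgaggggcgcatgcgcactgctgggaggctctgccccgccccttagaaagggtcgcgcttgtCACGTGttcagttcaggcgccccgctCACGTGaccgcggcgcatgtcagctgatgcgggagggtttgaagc

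The Lamp1 sequence holds 4 copies of CACGTG within the 61 bases before the start, the sequences of Ctsd and Mcoln1 hold 2 each, and that of Atp6v1a holds 1. The table had promoters for 57 of the 71 genes, each running from 250 bases before to 50 bases after the start. In this window CACGTG, which reads the same on both strands, was found for 14 of the 57 genes (24.6%) and for 2187 of all 27025 genes in the table (8.09%). The longer TCACGTGA, which contains CACGTG and is also a palindrome, was found for 7 of the 57 (Atg3, Atp6v0d1, Atp6v0e, Atp6v1a, Ctsa, Ctsd and Mcoln1, 12.3%) and for 1.12% of all genes. The full CLEAR consensus, a longer palindrome around the same letters that Tfeb prefers, was found for none of the 57 and for 0.37% of all genes. By role, CACGTG was present for 4 of 16 pump genes, 4 of 14 cathepsins, 3 of 13 conjugation genes, 1 of 9 initiation genes and 2 of 5 membrane proteins and regulators. These are matches of letters and not measured binding sites.

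Expression is given as the log2 signal relative to the 75th percentile of the same array, so 0 is the signal of that percentile. A gene rose or fell when its adjusted p was under 0.05 (limma, Benjamini-Hochberg over all 26866 features), and each error is the fit's standard error (n = 3 arrays in each group). Levels of different genes come from different probes and are not compared.

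With CHIR99021, 24 of the 63 tested genes rose, 11 fell and 28 did not pass the test against DMSO. The 35 called genes are 55.6% of those tested, beside 51% of all features, so the share called is near that of the array as a whole. By direction, 38.1% of the genes rose beside 30.4% of all features, and 17.5% fell beside 20.5%. The median log2 fold change was 0.08 for the genes and 0.07 for all features, and over the 61 genes well above background on at least 1 array of each group the values ran from -0.91 (Ctsf) to 3.17 (Atp6v1c2). Changes of at least 1.5-fold were called for 9 genes upward and 3 downward, beside 10.5% and 8.94% of all features. The DMSO and CHIR99021 arrays did not overlap for 40 of the 63 genes, beside 63.3% of all features. Without DMSO array 1 the genes that fell were 7 in place of 11.

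With AICAR, 24 of the 63 genes rose, 12 fell and 27 did not pass. The 36 called genes are 57.1% of those tested, beside 60.5% of all features. Upward calls made up 38.1% beside 30.9% of all features, and downward calls 19% beside 29.6%. The median log2 fold change was 0.11, beside 0.03 for all features, and the values ran from -1.65 (Ctsk) to 2.29 (Atp6v1c2). Of the called genes, 10 rose and 4 fell by at least 1.5-fold, beside 14.8% and 12.2% of all features. The DMSO and AICAR arrays did not overlap for 43 genes, beside 67.1% of all features.

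Scaling the arrays on their spike-in controls shifted every log2 fold change by -0.07 for CHIR99021 against DMSO, by 0.13 for AICAR against DMSO and by -0.2 for CHIR99021 against AICAR. On that scale 13 genes rose with CHIR99021 and 4 fell with AICAR. The share of AICAR calls that were upward was then 86.2% in place of 66.7% for these genes and 66.6% in place of 51.1% for all features, and median scaling gave 40.9% for all features. For CHIR99021 the share over all features was 48.4% in place of 59.7%. No called gene changed sign against DMSO under the other scalings tried, although 14 calls were lost for CHIR99021 and 9 for AICAR with the spike-in scale. The mean log2 spike-in signal over the 75th percentile also differed within groups. It was 3.92, 4 and 4.013 on the DMSO arrays, 4.04, 4.092 and 3.998 with CHIR99021, and 3.79, 4.015 and 3.737 with AICAR. Spike-in scaling therefore also moves arrays of a group relative to each other, and the part of this in the lost calls was not tested.

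**Figure D1:**
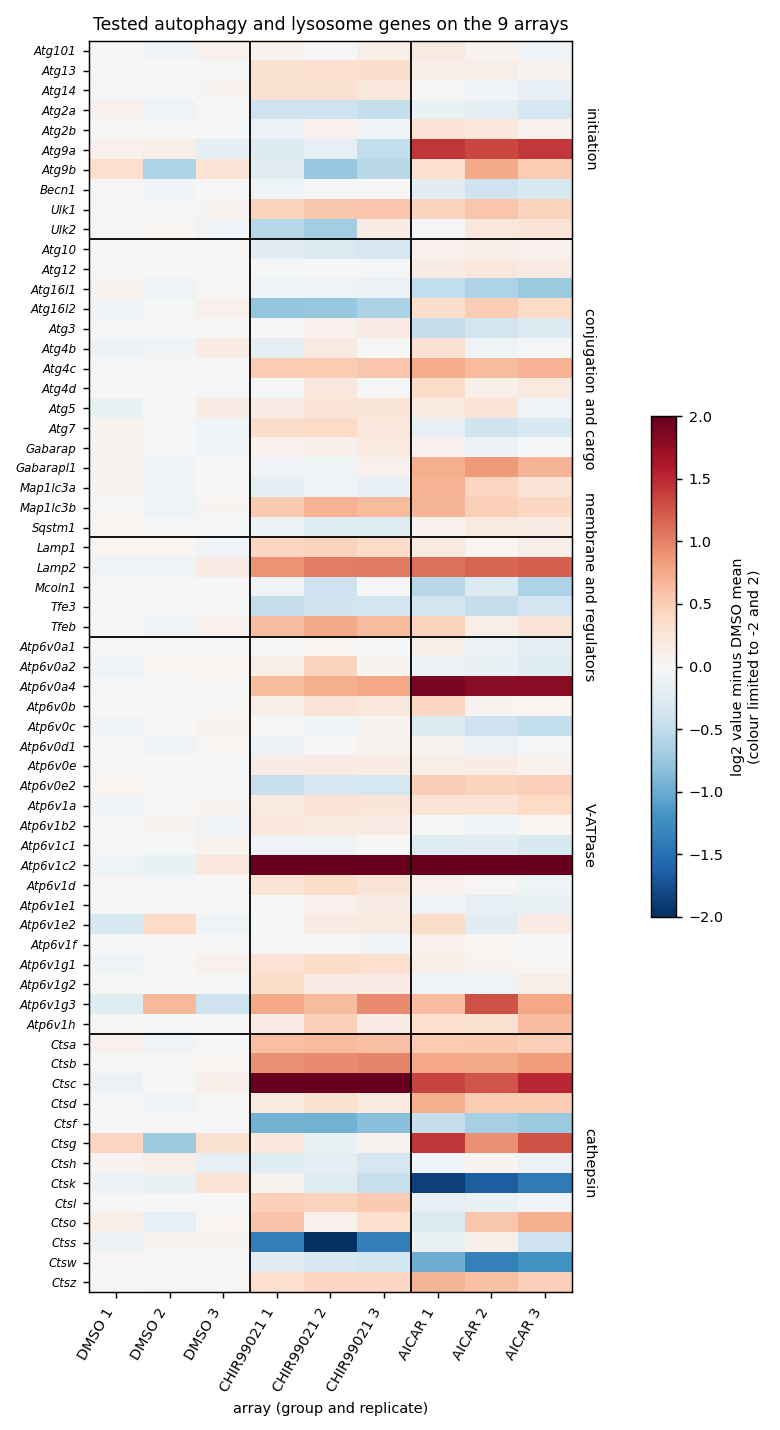
Log2 signal of the 63 tested genes (rows, grouped by role) on each of the 9 arrays (columns), as the difference from the gene's DMSO mean, with the colour limited to -2 and 2. Atp6v1c2 and Ctsc are high on all arrays of both treatments, Atg9a and Atp6v0a4 are highest on the AICAR arrays, and Ctsk and Ctsw are lowest on the AICAR arrays.

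Among the 10 genes that start and extend the autophagosome membrane, 3 rose and 2 fell with CHIR99021, and 3 rose and 2 fell with AICAR. These are 30% up and 20% down in each comparison, beside 30.4% and 20.5% of all features for CHIR99021 and 30.9% and 29.6% for AICAR. Spike-in scaling gave 1 rise and 1 fall with CHIR99021, and 3 rises and no fall with AICAR. Ulk1, the kinase that initiates autophagy, was higher with both compounds, while Atg9a, the transmembrane protein of the vesicles that seed the membrane, was strongly higher with AICAR. Ulk1 read 5.08, 5.07 and 5.17 on the DMSO arrays, 5.56, 5.65 and 5.66 with CHIR99021, and 5.56, 5.67 and 5.56 with AICAR. Every treated array was above every DMSO array, and the 2 treatments overlapped. Ulk1 rose by a log2 fold change of 0.52 ± 0.06 with CHIR99021 (1.43-fold, adjusted p = 0.00017) and 0.49 ± 0.06 with AICAR (1.4-fold, adjusted p = 0.000147). Its relative Ulk2 read -1.93, -1.91 and -2.02 with DMSO, -2.52, -2.65 and -1.80 with CHIR99021, and -1.99, -1.72 and -1.69 with AICAR. One CHIR99021 array lay above the DMSO arrays and the other two below, and Ulk2 passed neither test (-0.37, adjusted p = 0.163, and 0.15, adjusted p = 0.551). With CHIR99021 it was lower and called without CHIR99021 array 3 (-0.64, adjusted p = 0.00242), at its dimmer probe (-0.50, adjusted p = 0.00709) and with its probes averaged (-0.44, adjusted p = 0.0296).

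Atg9a read -1.98, -1.94 and -2.25 with DMSO, -2.33, -2.22 and -2.55 with CHIR99021, and -0.63, -0.73 and -0.64 with AICAR. The AICAR arrays stood clear above the other 6, and the DMSO and CHIR99021 arrays overlapped. Atg9a rose with AICAR by 1.39 ± 0.11 (2.62-fold, adjusted p = 1.64e-05). The log2 fold change with CHIR99021 was -0.31 ± 0.11 (adjusted p = 0.041), and this call was lost without DMSO array 1 or 2, CHIR99021 array 1 or 3 or any AICAR array, at -0.41 to -0.22 over all arrays left out in turn. It was also lost with normexp (-0.08, adjusted p = 0.38) and on the spike-in scale (-0.38, adjusted p = 0.0603). For Atg9b, the second Atg9 gene, no CHIR99021 array was well above background, against 2 DMSO arrays and 3 AICAR arrays. It passed neither test against DMSO (adjusted p = 0.144 and 0.119).

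Becn1, which scaffolds the lipid kinase complex of initiation, read 0.84, 0.76 and 0.82 with DMSO, 0.73, 0.80 and 0.82 with CHIR99021, and 0.60, 0.40 and 0.51 with AICAR. The AICAR arrays were the lowest 3, and the DMSO and CHIR99021 arrays overlapped. Becn1 fell by 0.30 on the log2 scale with AICAR (adjusted p = 0.00334), a call that the spike-in scale ended (-0.17, adjusted p = 0.268), and it differed by -0.02 with CHIR99021 (adjusted p = 0.816). Atg13, a subunit of the Ulk1 complex, and Atg14, the partner that directs Becn1 to autophagy, rose with CHIR99021 by 0.34 ± 0.04 and 0.28 ± 0.06. Their log2 fold changes with AICAR, 0.10 and -0.07, did not pass. Both CHIR99021 calls were lost on the spike-in scale (0.27, adjusted p = 0.0518, and 0.21, adjusted p = 0.114). Atg2a, a lipid transfer protein, fell by 0.43 with CHIR99021 and by 0.22 with AICAR. Its relative Atg2b was at -0.03 with CHIR99021, which did not pass, and rose by 0.20 with AICAR. The AICAR call of Atg2a was lost without DMSO array 1 or 3 or AICAR array 3 (-0.26 to -0.15 over all arrays left out). It was also lost on the spike-in scale (-0.09, adjusted p = 0.503). The AICAR call of Atg2b was lost without any DMSO array, CHIR99021 array 3 or AICAR array 1 or 2 (0.16 to 0.26). Atg101, which stabilises Atg13, passed neither test.

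LC3 and GABARAP proteins coat the autophagosome and bind cargo receptors. Of the 4 genes of this family within the name rule, 3 rose with AICAR and 1 with CHIR99021, and none fell. Of all features 30.9% rose with AICAR and 30.4% with CHIR99021. Gabarapl2, a gene of the family outside the rule, fell by 0.55 with AICAR (SE 0.16, adjusted p = 0.0156). With CHIR99021 Gabarapl2 was at 0.24 ± 0.16, which did not pass (adjusted p = 0.238). Map1lc3b, the LC3 protein used as the usual autophagosome marker, read 3.11, 3.01 and 3.15 with DMSO, 3.61, 3.79 and 3.73 with CHIR99021, and 3.77, 3.57 and 3.51 with AICAR. All 6 treated arrays lay above the DMSO arrays and the treatments overlapped. Map1lc3b rose by 0.62 ± 0.08 with CHIR99021 (1.54-fold, adjusted p = 0.000475) and by 0.53 ± 0.08 with AICAR (1.44-fold, adjusted p = 0.000811). Gabarapl1, a GABARAP paralogue, read 3.70, 3.58 and 3.64 with DMSO, 3.57, 3.55 and 3.73 with CHIR99021, and 4.36, 4.49 and 4.32 with AICAR. The AICAR arrays were above all others, and the CHIR99021 arrays spanned the DMSO range. Gabarapl1 rose with AICAR by 0.75 ± 0.07 (1.68-fold, adjusted p = 4.36e-05), and its value with CHIR99021 was -0.02 ± 0.07 (adjusted p = 0.808).

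Map1lc3a read 0.36, 0.24 and 0.30 with DMSO, 0.12, 0.21 and 0.14 with CHIR99021, and 1.00, 0.73 and 0.56 with AICAR. The 3 groups did not overlap, with CHIR99021 lowest. Map1lc3a rose with AICAR by 0.46 ± 0.10 (adjusted p = 0.00536), and the log2 fold change of -0.14 ± 0.10 with CHIR99021 did not pass (adjusted p = 0.283). Gabarap read 3.78, 3.70 and 3.65 with DMSO, 3.80, 3.81 and 3.91 with CHIR99021, and 3.79, 3.61 and 3.67 with AICAR. The CHIR99021 arrays lay just above the DMSO arrays, the AICAR arrays overlapped with them, and neither test was passed (adjusted p = 0.125 and 0.825).

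Sqstm1 encodes p62, the receptor that carries ubiquitinated cargo to LC3. It read 0.74, 0.67 and 0.68 with DMSO, 0.60, 0.46 and 0.44 with CHIR99021, and 0.79, 0.90 and 0.86 with AICAR. The order CHIR99021, DMSO, AICAR held for every array. Sqstm1 fell by 0.20 on the log2 scale with CHIR99021 (SE 0.06, adjusted p = 0.0216), while 0.15 ± 0.06 with AICAR missed the threshold (adjusted p = 0.0509). The CHIR99021 call was lost without DMSO array 1 (-0.18), CHIR99021 array 2 (-0.18) or CHIR99021 array 3 (-0.17), and on the spike-in scale (-0.27, adjusted p = 0.0657). In several other settings the rise with AICAR was called. Among them were normexp (0.2, adjusted p = 0.0227), quantile normalization (0.18, adjusted p = 0.0326) and spike-in scaling (0.28, adjusted p = 0.0391).

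Of the 15 tested genes of conjugation and cargo, 3 rose and 3 fell with CHIR99021 and 6 rose and 3 fell with AICAR. With CHIR99021 these are 20% up and 20% down, beside 30.4% and 20.5% of all features, and with AICAR 40% and 20%, beside 30.9% and 29.6%. With spike-in scaling the counts were 2 and 2 with CHIR99021 and 8 and 1 with AICAR. The enzymes that join these proteins to lipid differed among themselves. Atg4c, a protease that trims LC3 proteins, rose with both compounds (log2 fold change 0.52 ± 0.05 and 0.69 ± 0.05). Atg7, the activating enzyme, rose by 0.31 ± 0.08 with CHIR99021 and fell by 0.29 with AICAR, and its dimmer probe gave 0.41 and 0.10. Both calls of Atg7 were lost on the spike-in scale, and the AICAR call also with its probes averaged (-0.10), so the fall with AICAR rests on 1 of 2 probes. Atg3, the enzyme that passes LC3 to lipid, fell by 0.37 with AICAR, a call lost on the spike-in scale (-0.24, adjusted p = 0.0994). Atg16l1, which places the conjugating complex on the membrane, fell by 0.61 with AICAR (SE 0.07, adjusted p = 0.000171). Atg10, the enzyme that joins Atg12 to Atg5, fell by 0.28 with CHIR99021 (-0.16 with normexp background correction). Atg12, the ubiquitin-like partner of Atg5, rose by 0.18 with AICAR at its brighter probe, where its dimmer probe gave -0.08. Atg4b, Atg4d and Atg5 passed neither test, and the probe of Atg4a was well above background on no array.

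Atg16l2, a paralogue of Atg16l1, read -0.93, -0.89 and -0.78 with DMSO, -1.66, -1.63 and -1.51 with CHIR99021, and -0.52, -0.36 and -0.47 with AICAR. The groups were separate, with CHIR99021 lowest and AICAR highest. Atg16l2 fell by 0.73 with CHIR99021 (SE 0.07, adjusted p = 7.28e-05) and rose by 0.42 ± 0.07 with AICAR (adjusted p = 0.00102). Its dimmer probe agreed in direction for CHIR99021 (-1.29) but not for AICAR (-0.12, adjusted p = 0.29), so the rise with AICAR rests on 1 of 2 probes.

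**Figure D2:**
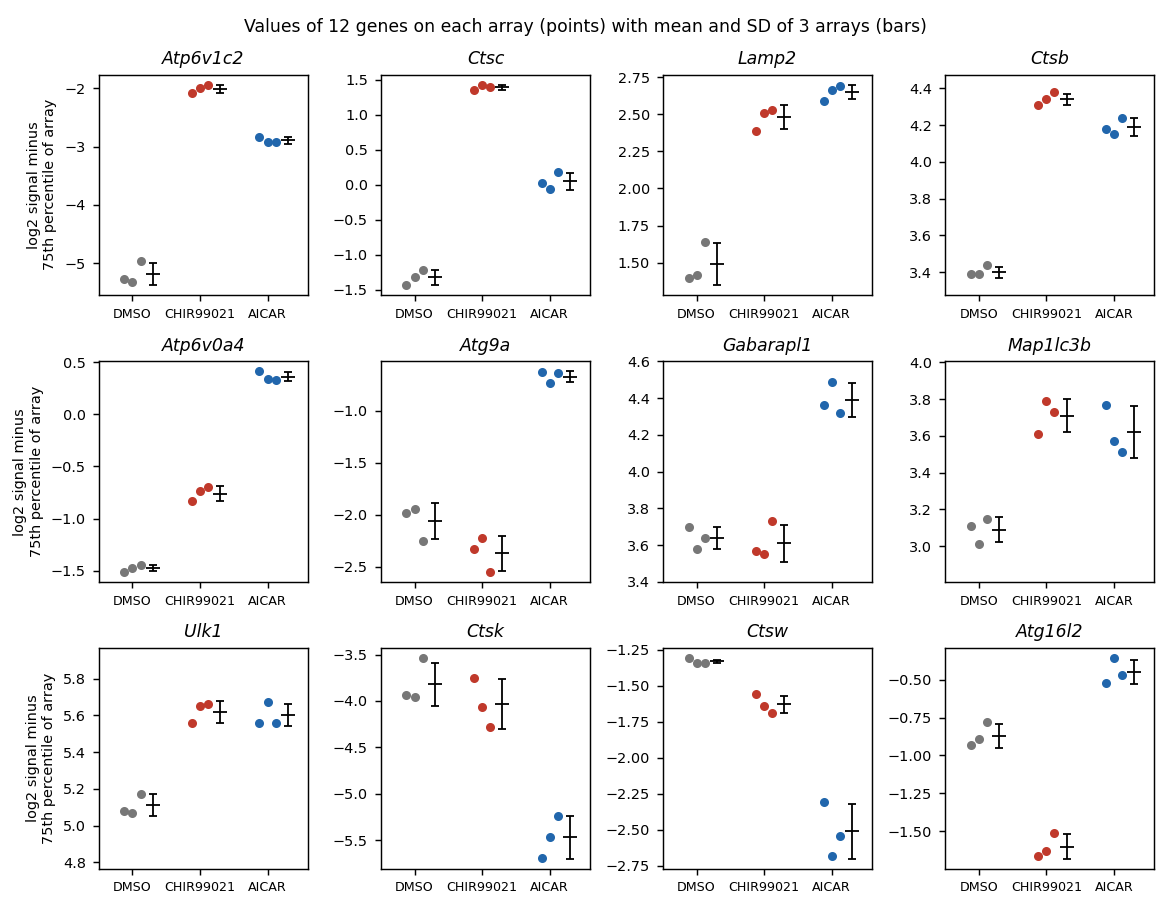
Log2 signal relative to the array's 75th percentile (vertical axis, a separate range for each gene) of 12 genes on each array (points) by group, with the mean and SD of 3 arrays (bars). The AICAR points stand apart from the other groups for Atg9a, Gabarapl1, Ctsk and Ctsw, and all treated points lie above the DMSO points for Atp6v1c2, Ctsc, Lamp2, Ctsb, Atp6v0a4, Map1lc3b and Ulk1.

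The V-ATPase consists of a membrane sector, V0, that conducts protons and a cytosolic sector, V1, that hydrolyses ATP. Of 20 tested subunit genes, 9 rose and 1 fell with CHIR99021 (median log2 fold change 0.20), and 7 rose and 2 fell with AICAR (median 0.05). With CHIR99021 these are 45% up and 5% down, beside 30.4% and 20.5% of all features, and with AICAR 35% and 10%, beside 30.9% and 29.6%. In V1, 7 of 12 rose and none fell with CHIR99021, and 4 rose and 1 fell with AICAR. In V0, 2 of 8 rose and 1 fell with CHIR99021, and 3 rose and 1 fell with AICAR. On the spike-in scale 2 of the 20 rose with CHIR99021, 1 of them in V1, and 6 rose and none fell with AICAR, while median scaling turned the AICAR median to -0.04. Atp6v1c2 and Atp6v0a4 rose with both compounds in each of the 19 alternative settings.

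Atp6v1c2, a V1 isoform of restricted tissue expression, read -5.26, -5.32 and -4.96 with DMSO, -2.08, -2.0 and -1.95 with CHIR99021, and -2.83, -2.92 and -2.93 with AICAR. The 3 groups were separate, and all arrays were well above background. Atp6v1c2 rose by 3.17 ± 0.09 with CHIR99021 (9.0-fold, adjusted p = 2.59e-07) and by 2.29 ± 0.09 with AICAR (4.89-fold, adjusted p = 7.62e-07), the highest value of the 63 genes in both comparisons. Under normexp background correction its values were 1.47 and 0.91, both called, and Ctsc (2.47) was then highest with CHIR99021 and Atp6v0a4 (1.56) with AICAR. Normexp as run here adds an offset of 50 to every signal, which makes log2 differences smaller, most of all for dim probes. The ubiquitous isoform Atp6v1c1 was at -0.05 ± 0.05 with CHIR99021, which did not pass, and fell by 0.26 with AICAR (SE 0.05, adjusted p = 0.00333), a call lost on the spike-in scale.

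Atp6v0a4, the V0 a-subunit isoform of renal intercalated cells, read -1.51, -1.47 and -1.44 with DMSO, -0.83, -0.74 and -0.70 with CHIR99021, and 0.41, 0.34 and 0.33 with AICAR. The groups were separate, with AICAR highest. Atp6v0a4 rose by 0.71 ± 0.05 with CHIR99021 (1.64-fold, adjusted p = 1.72e-05) and by 1.83 ± 0.05 with AICAR (3.56-fold, adjusted p = 1.77e-07). The other tested a-subunit genes, Atp6v0a1 and Atp6v0a2, passed neither test. Atp6v0e2, an isoform of the small V0 e subunit, read 0.19, 0.14 and 0.14 with DMSO, -0.31, -0.18 and -0.20 with CHIR99021, and 0.64, 0.59 and 0.62 with AICAR. It was lowest on the CHIR99021 arrays and highest on the AICAR arrays, with no overlap. Atp6v0e2 fell by 0.38 with CHIR99021 (SE 0.05, adjusted p = 0.000446) and rose by 0.46 ± 0.05 with AICAR (adjusted p = 0.000105).

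Several subunits of the common pump had smaller changes. With CHIR99021 the catalytic subunit Atp6v1a rose by 0.24, its partner Atp6v1b2 by 0.19, the central stalk subunit Atp6v1d by 0.30 and the peripheral stalk subunit Atp6v1g1 by 0.33, all called on the main scale. On the spike-in scale each of these 4 calls was lost. With AICAR, Atp6v1a rose by 0.31 and the regulatory subunit Atp6v1h by 0.42, both also called on the spike-in scale, whereas Atp6v0c, the proteolipid of the proton-conducting ring, fell by 0.40 and lost its call there. Atp6v0b, Atp6v0d1, Atp6v1e1, Atp6v1e2 and Atp6v1f passed neither test.

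The calls of 3 further genes depended on single arrays. Atp6v0e rose by 0.15 with CHIR99021, which was lost without DMSO array 2 or 3 or CHIR99021 array 2 (0.14 to 0.16 over all arrays left out), and by 0.11 with AICAR (adjusted p = 0.0495), which was kept only when AICAR array 3 was the one left out (0.09 to 0.13). Atp6v1g2 rose by 0.22 with CHIR99021 (adjusted p = 0.0465), likewise kept only with AICAR array 3 left out (0.15 to 0.26). Atp6v1g3, well above background on 1 of 3 DMSO arrays and on all treated arrays, had log2 fold changes of 0.78 ± 0.28 and 0.89 ± 0.28, and of 0.27 and 0.23 with normexp. Its CHIR99021 call (adjusted p = 0.0489) was lost without DMSO array 1 or 3, any CHIR99021 array, or AICAR array 1 or 3 (0.58 to 1.11). Its AICAR call (adjusted p = 0.0261) was lost without DMSO array 1 or 3 or AICAR array 2 (0.68 to 1.21). Atp6v0d2 and Atp6v1b1 were well above background on no array.

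Cathepsins, the proteases of the lysosome, changed in both directions. Of 13 tested, 6 rose and 4 fell with CHIR99021, and 6 rose and 3 fell with AICAR. With CHIR99021 these are 46.2% up and 30.8% down, beside 30.4% and 20.5% of all features, and with AICAR 46.2% and 23.1%, beside 30.9% and 29.6%. After spike-in scaling the counts were 5 and 3 with CHIR99021 and 6 and 3 with AICAR. Ctsc, which activates serine proteases of immune granules, read -1.43, -1.31 and -1.22 with DMSO, 1.35, 1.42 and 1.40 with CHIR99021, and 0.03, -0.06 and 0.18 with AICAR. The 3 groups were far apart relative to their spread, in the order DMSO, AICAR, CHIR99021. Ctsc rose by 2.71 ± 0.08 with CHIR99021 (6.54-fold, adjusted p = 2.12e-07) and by 1.37 ± 0.08 with AICAR (2.58-fold, adjusted p = 3.41e-06). Ctsb, a broadly expressed cysteine protease, read 3.39, 3.39 and 3.44 with DMSO, 4.31, 4.34 and 4.38 with CHIR99021, and 4.18, 4.15 and 4.24 with AICAR. All treated arrays were above the DMSO arrays. Ctsb rose by 0.94 ± 0.05 with CHIR99021 (1.92-fold, adjusted p = 2.38e-06) and by 0.79 ± 0.05 with AICAR (1.73-fold, adjusted p = 3.81e-06).

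Ctsa, the protective protein of lysosomal sialidase and galactosidase, rose by 0.61 ± 0.05 with CHIR99021 and 0.50 ± 0.05 with AICAR, and its dimmer probe gave 1.29 and 0.38. Ctsz, a carboxypeptidase, rose by 0.39 ± 0.06 and 0.58 ± 0.06. Ctsd rose by 0.58 ± 0.07 with AICAR (adjusted p = 0.000238). Its 0.24 ± 0.07 with CHIR99021 was called (adjusted p = 0.0276), but was lost without any 1 of the DMSO arrays and without CHIR99021 array 1 or 2 (0.20 to 0.26 over all arrays left out). Ctsl, an endopeptidase abundant in stem cells and early embryos, read 5.53 on each DMSO array, 6.01, 5.97 and 6.05 with CHIR99021, and 5.36, 5.39 and 5.47 with AICAR. The groups were separate, with CHIR99021 highest and AICAR lowest. Ctsl rose with CHIR99021 by 0.49 ± 0.05 (adjusted p = 8.14e-05), and -0.12 ± 0.05 with AICAR missed the threshold (adjusted p = 0.0515).

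Ctsf, a ubiquitous cysteine protease, was lower with both compounds. It read 0.00, 0.03 and -0.03 with DMSO, -0.95, -0.95 and -0.83 with CHIR99021, and -0.47, -0.66 and -0.75 with AICAR. The groups did not overlap. Ctsf fell by 0.91 with CHIR99021 (SE 0.08, adjusted p = 4.28e-05) and by 0.63 with AICAR (SE 0.08, adjusted p = 0.000193). Ctsh, an aminopeptidase, fell by 0.26 with CHIR99021 (adjusted p = 0.0375), a call lost without DMSO array 1 or 2, CHIR99021 array 1 or 3 or AICAR array 1 (-0.34 to -0.20). Ctso passed neither test.

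Ctsk, Ctsw, Ctsg and Ctss are best known from osteoclasts, cytotoxic lymphocytes, granulocytes and antigen-presenting cells. Ctsk read -3.94, -3.96 and -3.54 with DMSO, -3.75, -4.07 and -4.28 with CHIR99021, and -5.69, -5.47 and -5.24 with AICAR. The AICAR arrays were the lowest, and the DMSO and CHIR99021 arrays overlapped. Ctsk fell by 1.65 with AICAR (SE 0.18, 3.14-fold, adjusted p = 9.95e-05), and -0.22 ± 0.18 with CHIR99021 did not pass (adjusted p = 0.341). With normexp the Ctsk value with AICAR was -0.39, still called (adjusted p = 0.000818). Ctsw read -1.31, -1.34 and -1.34 with DMSO, -1.56, -1.64 and -1.69 with CHIR99021, and -2.31, -2.68 and -2.54 with AICAR. Every CHIR99021 array was below DMSO and every AICAR array lower still. Ctsw fell by 1.18 with AICAR (SE 0.09, 2.27-fold, adjusted p = 1.55e-05) and by 0.30 with CHIR99021 (SE 0.09, adjusted p = 0.0233), the latter lost without any 1 of the DMSO arrays and without CHIR99021 array 2 or 3 (-0.34 to -0.27).

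Ctsg, a serine protease, read -4.72, -5.88 and -4.84 with DMSO, -4.94, -5.28 and -5.08 with CHIR99021, and -3.72, -4.23 and -3.87 with AICAR. It was well above background on 2 DMSO arrays and on all others, and the AICAR arrays were highest. Ctsg rose with AICAR by 1.21 ± 0.30 (2.31-fold, adjusted p = 0.00801) and was at 0.05 ± 0.30 with CHIR99021 (adjusted p = 0.912). With normexp the value with AICAR was 0.38, still called (adjusted p = 0.00179). Ctss read -5.46, -5.31 and -5.31 with DMSO, -6.74, -7.61 and -6.72 with CHIR99021, and -5.50, -5.26 and -5.78 with AICAR. No CHIR99021 array was well above background for Ctss, while all DMSO and AICAR arrays were. The measured log2 fold change of Ctss with CHIR99021 was -1.67 (adjusted p = 0.000716). Its size is uncertain and no lower bound is given, because the CHIR99021 signals were not well above background. With normexp background correction the Ctss difference was -0.10 and not called (adjusted p = 0.248). It is among 4 tested genes, with Ctsg, Atg9b and Atp6v1g3, that were not well above background on all 9 arrays, and such genes enter the test through the groups where they are higher.

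The probes of Ctse, Ctsj, Ctsm, Ctsq and Ctsr were not tested. Ctsq was well above background on 1 DMSO array and the other 4 on none. The summed signal of the macrophage markers, in units of an array's 75th percentile, was 12.5 to 13.1 with DMSO, 14.3 to 15.2 with CHIR99021 and 14.5 to 17 with AICAR. Most of this sum is Itgam, at mean log2 values of 3.57, 3.79 and 3.88, where the next brightest, Csf1r, was at -1.05, -0.45 and -0.59. Of 5 tested macrophage markers 2 rose and 1 fell with CHIR99021, and 3 rose and 1 fell with AICAR. Cd14 was the gene that fell, by 2.06 and 0.88. In that list of 8, 7 had a probe, and 4 were well above background on all DMSO arrays, 4 on all CHIR99021 arrays and 5 on all AICAR arrays. Lyz2 was well above background on no array and Tyrobp on 1 DMSO array. The 6 markers of T and natural killer cells summed to 4.52 to 4.81, 5.21 to 5.44 and 4.81 to 5.22, and the 10 fibroblast markers to 2.15 to 2.31, 2.32 to 2.48 and 3.4 to 4.08, with Lum and Postn well above background on no array. Trophoblast markers, 9 of 10 with a probe, summed to 12.1 to 12.9, 22.4 to 23.6 and 20.8 to 21. Tpbpa was well above background on no array, and Elf5 and Hand1 on no DMSO or CHIR99021 array. Most of this sum is Tfap2c, at mean log2 values of 3.3, 3.88 and 3.96. Cdx2 was at -5.42, 1.85 and -7.33, and no AICAR array was well above background for it. Gata3 fell with both compounds, by 1.26 and 1.6. The 10 endoderm markers summed to 1.7 to 1.92, 1.34 to 1.5 and 1.45 to 1.6, with Apoa1 well above background on no array. Members of these lists went both ways. With CHIR99021, 2 of 8 tested fibroblast markers rose and 3 fell, and with AICAR 3 rose and 3 fell. For 9 endoderm markers the counts were 2 and 4, then 4 and 4, and for 6 trophoblast markers 5 and 1, then 4 and 2. Of all features 30.4% rose and 20.5% fell with CHIR99021, and 30.9% and 29.6% with AICAR. The part of such cells in the changes of the cathepsins and pump isoforms was not tested.

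Among lysosomal membrane proteins and regulators, Lamp2 rose with both compounds. Lamp2, a membrane glycoprotein needed for autophagosome clearance, read 1.40, 1.42 and 1.64 with DMSO, 2.39, 2.51 and 2.53 with CHIR99021, and 2.59, 2.66 and 2.69 with AICAR. The groups were separate, with AICAR highest. Lamp2 rose by 0.99 ± 0.08 with CHIR99021 (1.99-fold, adjusted p = 2.88e-05) and by 1.16 ± 0.08 with AICAR (2.23-fold, adjusted p = 7.92e-06), and its dimmer probe gave 0.72 and 0.53. Lamp1 read 6.56, 6.56 and 6.45 with DMSO, 6.95, 6.96 and 6.88 with CHIR99021, and 6.70, 6.56 and 6.64 with AICAR. The CHIR99021 arrays were highest, and the AICAR arrays overlapped with DMSO. Lamp1 rose by 0.41 ± 0.06 with CHIR99021 (adjusted p = 0.000613), and 0.11 ± 0.06 with AICAR did not pass (adjusted p = 0.123). With quantile normalization or the series matrix values the AICAR value was 0.27 and called (adjusted p = 0.0042 and 0.00389).

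Tfeb read -0.67, -0.74 and -0.59 with DMSO, -0.06, 0.09 and -0.03 with CHIR99021, and -0.21, -0.53 and -0.41 with AICAR. The groups were separate, with AICAR between the other two. Tfeb mRNA rose by 0.67 ± 0.09 with CHIR99021 (1.59-fold, adjusted p = 0.000483). The rise of 0.29 ± 0.09 with AICAR (adjusted p = 0.0234) was lost without DMSO array 1 (0.28) or 2 (0.25), without AICAR array 1 (0.20), or with median scaling (0.19). Tfe3 read 4.0, 4.03 and 3.97 with DMSO, 3.52, 3.60 and 3.62 with CHIR99021, and 3.61, 3.52 and 3.61 with AICAR. All treated arrays were below the DMSO arrays and the treatments overlapped. Tfe3 fell by 0.42 with each compound (SE 0.05, adjusted p = 0.000274 and 0.000181), and with its dimmer probe by 0.61 and 0.58. The AICAR call of Tfe3 was lost on the spike-in scale (-0.29, adjusted p = 0.0575).

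Mcoln1 read 3.51, 3.48 and 3.48 with DMSO, 3.42, 3.07 and 3.50 with CHIR99021, and 2.93, 3.22 and 2.88 with AICAR. All AICAR arrays lay below DMSO, and 1 CHIR99021 array did so by a wide margin. Mcoln1 fell by 0.48 with AICAR (SE 0.13, adjusted p = 0.0114) and was at -0.16 ± 0.13 with CHIR99021 (adjusted p = 0.326). On the spike-in scale the AICAR value was -0.35 (adjusted p = 0.0504).

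**Figure D3:**
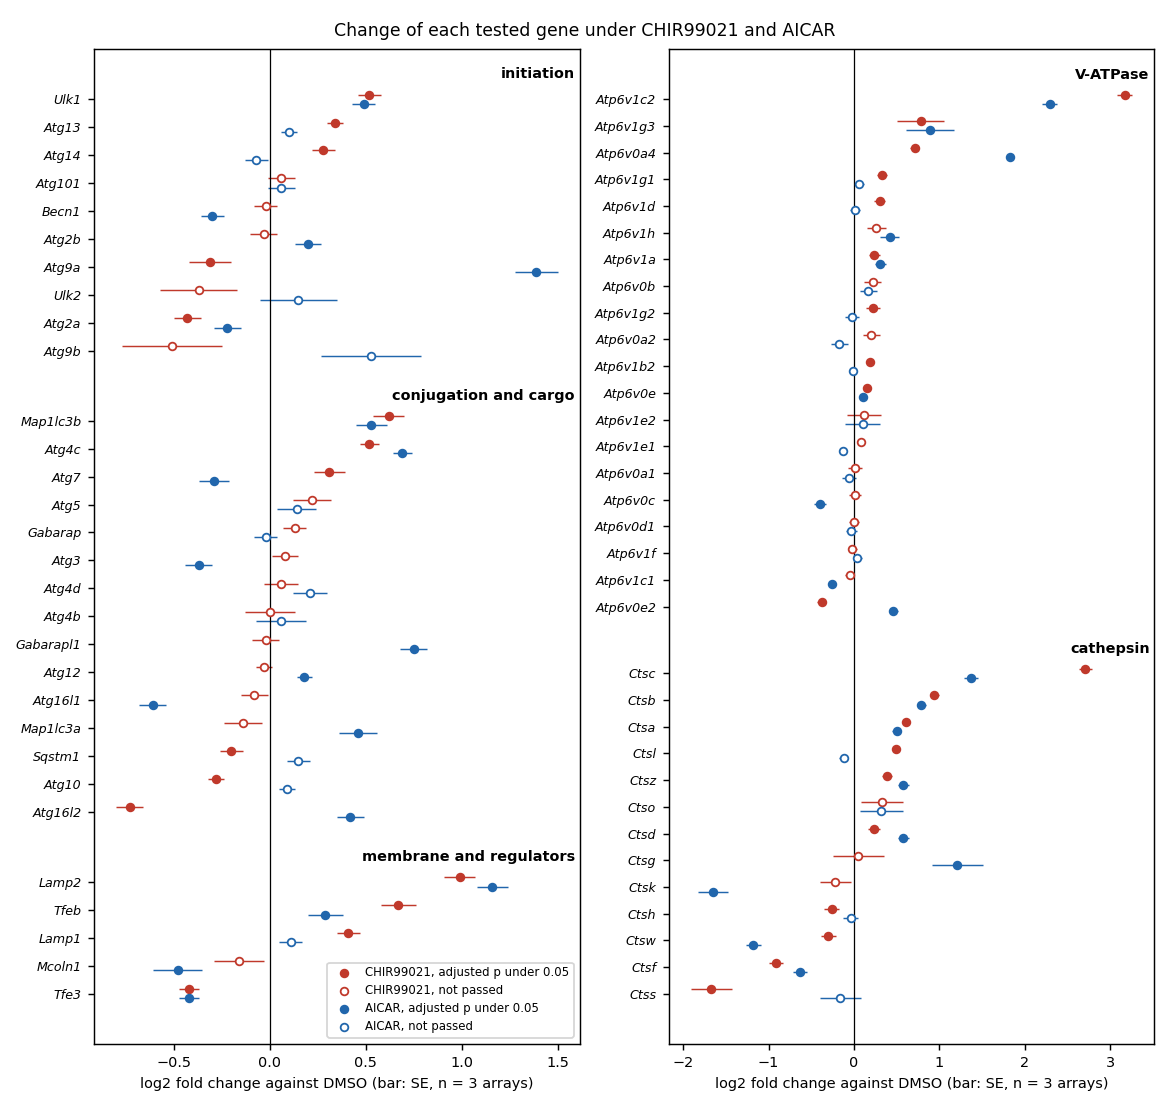
Log2 fold change against DMSO (horizontal axis, with the standard error of the fit) of each tested gene with CHIR99021 (red) and AICAR (blue), by role; filled points passed at an adjusted p under 0.05. The 2 panels have different ranges, and the highest points are those of Atp6v1c2 (3.17 and 2.29). Ctss with CHIR99021 is drawn at its measured value, although no CHIR99021 array was well above background for it.

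The genes whose promoter window held CACGTG can be set beside those without it. With CHIR99021, 8 of the 14 with the motif rose, 1 fell and 5 did not pass (median log2 fold change 0.23). Of the 37 tested genes with a promoter but no CACGTG, 13 rose, 8 fell and 16 did not pass (median 0.06). With AICAR the counts were 4, 4 and 6 with the motif (median 0.04) and 16, 4 and 17 without it (median 0.2). Upward calls were 57.1% with the motif and 35.1% without it for CHIR99021, beside 30.4% of all features, and 28.6% and 43.2% for AICAR, beside 30.9%. Downward calls were 7.14% and 21.6% for CHIR99021, beside 20.5%, and 28.6% and 10.8% for AICAR, beside 29.6%. Under spike-in scaling 3 of the 14 rose and 1 fell with CHIR99021, and 4 rose and 1 fell with AICAR, while without the motif 9 rose and 6 fell, and 17 rose and 1 fell. Of the 4 genes whose sequences are printed, Ctsd and Atp6v1a rose with both compounds, Lamp1 rose with CHIR99021, and Mcoln1 fell with AICAR. Atp6v1c2, Ctsc and Lamp2, which rose with both compounds, are not among the 14. These counts are a description, and the difference between genes with and without the motif was not tested.

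Set side by side, 15 genes rose with both compounds: Ulk1, Map1lc3b, Atg4c, Lamp2, Tfeb, the cathepsins Ctsa, Ctsb, Ctsc, Ctsd and Ctsz, and the pump genes Atp6v0a4, Atp6v0e, Atp6v1a, Atp6v1c2 and Atp6v1g3. They are 15 of 63, beside 15.3% of all features. Only 10 of the 15 were called for both compounds in every setting; Atp6v0e, Atp6v1a, Atp6v1g3, Ctsd and Tfeb were not. The genes that fell with both were Atg2a, Ctsf, Ctsw and Tfe3, beside 9.97% of all features, and of these Ctsf alone did so in every setting. Atg7 rose with CHIR99021 and fell with AICAR, while Atg9a, Atg16l2 and Atp6v0e2 fell with CHIR99021 and rose with AICAR, beside 4.78% and 5.27% of all features. Of these 4 genes, Atp6v0e2 kept both calls in every setting. A further 15 genes passed neither test. Both comparisons use the same DMSO arrays, so agreement between them is not independent.

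The direct comparison of the treatments takes its differences from the 6 treated arrays, while all 9 arrays set its error. Fitting the 6 alone lost 4 of the 40 calls below (Atg2b, Atp6v1g2, Ctsb and Ctsz) and added Ctsh. CHIR99021 exceeded AICAR for 22 of the 63 genes, AICAR exceeded CHIR99021 for 18, and 23 did not pass. The 40 called genes are 63.5% of those tested beside 60.8% of all features, and the arrays of the 2 treatments did not overlap for 44 genes, beside 65.5% of all features. By direction, 34.9% of the genes were higher with CHIR99021 beside 36.2% of all features, and 28.6% were lower beside 24.6%. Upward calls were 55% of the genes called. That share was 25% on the spike-in scale and 33.3% with quantile normalization or the deposited series matrix, so the balance of the directions depends on the scaling.

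Atg9a stood lowest with CHIR99021 relative to AICAR, at a log2 difference of -1.70 ± 0.11 (3.25-fold, adjusted p = 4.74e-06). Atg16l2 (-1.15 ± 0.07), Ctsg (-1.16 ± 0.30), Atp6v0a4 (-1.12 ± 0.05), Atp6v0e2 (-0.84 ± 0.05), Gabarapl1 (-0.77 ± 0.07), Map1lc3a (-0.61 ± 0.10) and Sqstm1 (-0.36 ± 0.06) were also lower with CHIR99021 than with AICAR. These 8 genes kept their calls under all 19 alternative settings, except that Ctsg could be tested in only 18 of them. With normexp the Ctsg difference was -0.30. Ctss and Atg9b were also lower with CHIR99021 than with AICAR, at measured log2 differences of -1.51 and -1.03 (adjusted p = 0.000805 and 0.00951). No CHIR99021 array was well above background for either gene, so the sizes are uncertain and no lower bound is given. Under normexp both calls were lost, with log2 differences of -0.06 and 0.02. Atg9b read -5.59, -6.53 and -5.64 with DMSO, -6.14, -6.68 and -6.47 with CHIR99021, and -5.60, -5.17 and -5.41 with AICAR.

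In the other direction, Ctsk (1.43 ± 0.18, adjusted p = 0.000198), Ctsc (1.34 ± 0.08, adjusted p = 3.07e-06), Atp6v1c2 (0.88 ± 0.09), Ctsw (0.87 ± 0.09), Ctsl (0.61 ± 0.05), Atg7 (0.60 ± 0.08) and Atg16l1 (0.53 ± 0.07) were higher with CHIR99021 in every setting. With normexp the differences of Ctsk and Atp6v1c2 were 0.40 and 0.56. By role, the V1 sector had 7 of 12 genes higher with CHIR99021 (58.3%) and none lower, while conjugation and cargo had 3 of 15 higher (20%) and 7 lower (46.7%). Over all features 36.2% were higher and 24.6% lower. With quantile normalization the V1 counts were 2 higher and 2 lower, and on the spike-in scale 1 higher and none lower, whereas conjugation and cargo had 3 higher and 8 lower, and 2 higher and 7 lower. Ulk1 differed by 0.03 ± 0.06 between the treatments (adjusted p = 0.702), but by -0.22 with quantile normalization, where it was called (adjusted p = 0.00831). Map1lc3b differed by 0.09 ± 0.08 (adjusted p = 0.348) and Lamp2 by -0.17 ± 0.08 (adjusted p = 0.0942), where the dimmer Lamp2 probe gave 0.19. Tfeb was higher with CHIR99021 by 0.38 ± 0.09 (adjusted p = 0.00613) and Lamp1 by 0.30 ± 0.06 (adjusted p = 0.00229), and both calls were lost on the spike-in scale. Ctsb was higher with CHIR99021 by 0.15 (adjusted p = 0.0208), but with quantile normalization, spike-in scaling or the series matrix values its sign turned (-0.08, -0.05 and -0.09, none called), and without CHIR99021 array 3 or AICAR array 2 it was 0.13 and not called.

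Other genes of the pathway show how far the changes extended. Of 39 further lysosomal enzymes and membrane proteins, 19 rose and 5 fell with CHIR99021 (median log2 fold change 0.21), and 23 rose and 4 fell with AICAR (median 0.29). Upward calls were thus 48.7% and 59% of this list, beside 30.4% and 30.9% of all features, and on the spike-in scale 12 rose and 3 fell with CHIR99021 and 23 rose and 2 fell with AICAR. Arsb, the sulfatase of dermatan sulfate, rose by 1.14 ± 0.31 with CHIR99021 (adjusted p = 0.0151), a call lost without DMSO array 2 (0.85 to 1.39 over all arrays left out), as did the tetraspanin Cd63 by 1.01 ± 0.06 and the cholesterol carrier Npc2 by 0.98 ± 0.06. Hexa, the alpha subunit of hexosaminidase, rose by 0.87 ± 0.07 with CHIR99021 and 0.69 ± 0.07 with AICAR. With AICAR the acid glucosidase Gaa rose by 0.88 ± 0.09 and the sialidase Neu1 by 0.84 ± 0.05.

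A set of sphingolipid-degrading genes differed in sign between the compounds. Smpd1, acid sphingomyelinase, fell by 0.72 with CHIR99021 (SE 0.07, adjusted p = 6.95e-05) and rose by 1.02 ± 0.07 with AICAR (adjusted p = 6.92e-06), with a direct difference of -1.73 ± 0.07 (adjusted p = 4.56e-07). Arsa, which removes sulfate from sulfatide, was at -0.42 ± 0.06 and 0.88 ± 0.06, and Gm2a, the activator protein for ganglioside breakdown, at -0.33 ± 0.09 and 0.77 ± 0.09, all called. The CHIR99021 call of Gm2a was lost without DMSO array 2 or 3 (-0.40 to -0.24), and its AICAR call was lost when its probes were averaged. Their direct differences were -1.29 ± 0.06 and -1.10 ± 0.09. These 3 genes were singled out after their values were seen.

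**Figure D4:**
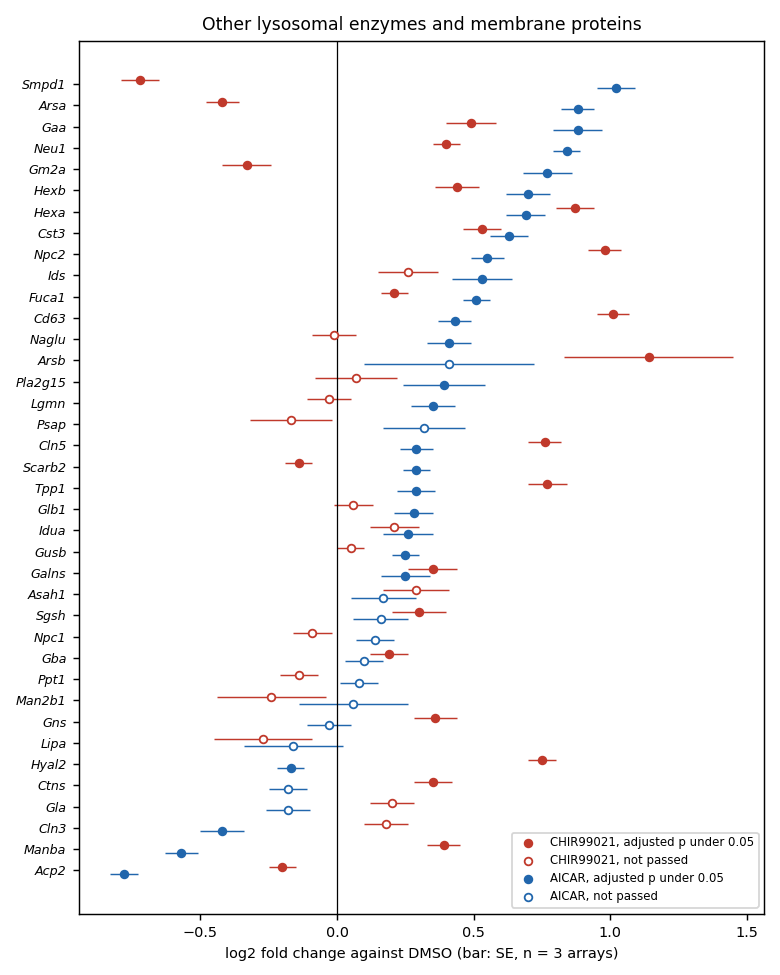
Log2 fold change against DMSO (horizontal axis, with the standard error of the fit) of other lysosomal genes with CHIR99021 (red) and AICAR (blue), ordered by the AICAR value; filled points passed at an adjusted p under 0.05. Smpd1, Arsa and Gm2a lie left of 0 with CHIR99021 and right of 0 with AICAR, and most other filled points lie to the right.

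The 33 other autophagy genes had more falls than rises on the main scale. With CHIR99021, 5 rose and 11 fell (median -0.05), and with AICAR 9 rose and 19 fell (median -0.17), so downward calls were 33.3% and 57.6% of the list beside 20.5% and 29.6% of all features. On the spike-in scale the AICAR counts were 9 and 8 (median -0.04), so for AICAR the excess of falls depends on the scaling. Wipi1, which binds the lipid made by the Becn1 complex, rose by 1.37 ± 0.08 with AICAR (adjusted p = 4.3e-06) and was at 0.07 ± 0.08 with CHIR99021. Its relatives Wipi2, at -0.58 ± 0.04 and -0.45 ± 0.04, and Wdr45, at 0.05 ± 0.06 and -0.76 ± 0.06, did not share this rise. Plekhm1, an adaptor for fusion with lysosomes, fell by 0.77 with AICAR. Optn, a cargo receptor for mitochondria, rose by 0.90 ± 0.09 with CHIR99021 and fell by 0.35 with AICAR, whereas the mitophagy receptor Bnip3 fell by 0.64 and rose by 0.48 ± 0.07.

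Of 24 tested genes of nutrient sensing at the lysosome and of the TFE family, 11 rose and 2 fell with CHIR99021 (median 0.15), and 5 rose and 7 fell with AICAR (median -0.06). With CHIR99021 these are 45.8% up and 8.33% down, beside 30.4% and 20.5% of all features, and with AICAR 20.8% and 29.2%, beside 30.9% and 29.6%. On the spike-in scale 6 rose and none fell with CHIR99021, and 5 rose and 2 fell with AICAR, with a median of 0.07 in place of -0.06. In the direct comparison 15 of the 24 were higher with CHIR99021 and 4 lower (62.5% and 16.7%, beside 36.2% and 24.6% of all features), but 2 and 4 on the spike-in scale. Rragd, a Rag GTPase that recruits the growth kinase complex mTORC1, rose by 1.46 ± 0.09 with CHIR99021 (adjusted p = 7.16e-06) and fell by 0.26 with AICAR (SE 0.09, adjusted p = 0.0327), the latter lost on the spike-in scale and without DMSO array 2 or 3 or AICAR array 2 or 3 (-0.32 to -0.19). Rragb, another Rag GTPase, was at 0.03 ± 0.06 and -0.79 ± 0.06, and only the second was called. Mitf, the relative of Tfeb and Tfe3, rose by 0.93 ± 0.09 and 1.19 ± 0.09. Fnip1 and Fnip2, partners of folliculin, rose by 0.53 and 0.48 with CHIR99021 and by 0.31 and 0.35 with AICAR, while folliculin itself, Flcn, was at 0.00 with CHIR99021 and fell by 0.43 with AICAR. The probe of Tfec was not tested.

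**Figure D5:**
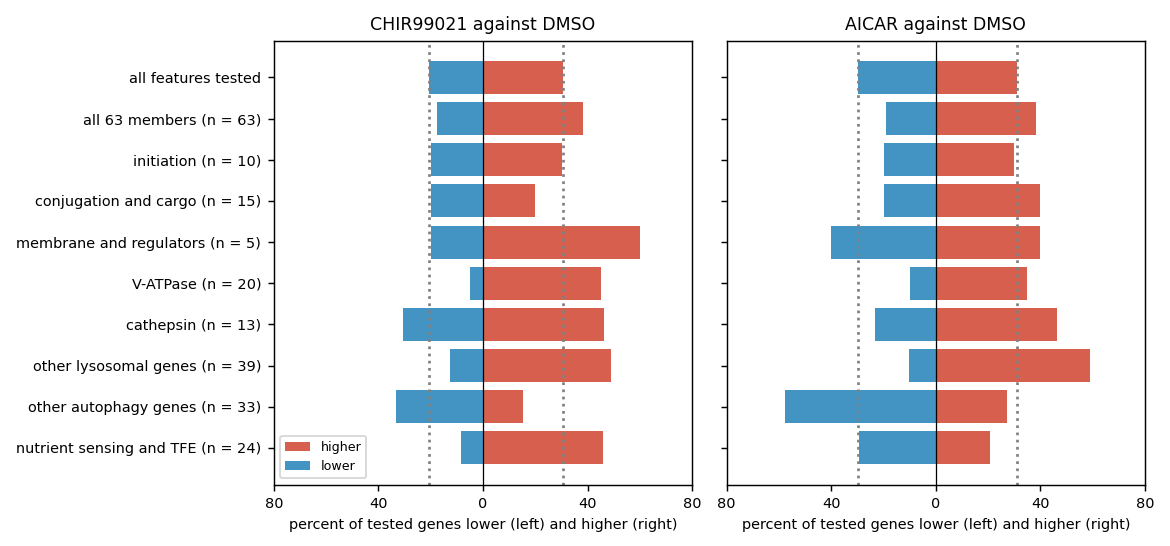
Percent of tested genes that fell (blue, left) and rose (red, right) at an adjusted p under 0.05, for all features and for each group of genes, with CHIR99021 and AICAR against DMSO; dotted lines mark the shares of all features. Other lysosomal genes extend furthest right of the dotted line with AICAR (59%), and other autophagy genes extend furthest left (57.6%).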

How the data were processed

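Each scanner file holds, per the file headers, spot intensity values on a linear scale from Agilent Feature Extraction 10.7.3.1 (10.7 in the submitters' processing notes), with mm9 as the build. The deposited series matrix holds log2 values that followed the log2 processed signal on each array (r of 0.99962 to 0.99999 over probes); the authors' centring of them is not stated in these sources. From the processed signal, log2 values minus each array's 75th percentile over non-control spots were computed. The software's outlier flags removed 136 to 192 spots from each array, and a probe's spots were averaged. The 37742 of 55681 probes that exceeded background clearly on 3 or more of the 9 arrays were kept, and the brightest probe of a gene was used. Names came from accessions through the RefSeq table of GRCm38.p6, which named 27235 probes. The 9 arrays entered 1 limma 3.58.1 fit (lmFit, eBayes; R 4.3.3), with Benjamini-Hochberg adjustment over 26866 features. The fit was tested on simulated data.

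The genes and lists were chosen with earlier results of these data known. Values of all arrays are given for the 8 called genes with the largest non-overlapping change in each comparison and for 13 genes fixed by name (Ulk1, Ulk2, Becn1, Tfeb, Tfe3, Mcoln1, Lamp1, Lamp2, Sqstm1, Map1lc3a, Map1lc3b, Gabarap and Gabarapl1). Atp6v0e2 and Ctsl were added after their values were seen. From each pathway list up to 4 called genes with the largest change were named, with others added after their values were seen. A gene of the lysosomal list is counted there but not reported here by name. Alternatives covered background correction, 4 other scalings or value tables, dim-probe filters, the probe per gene, arrays left out in turn and a replicate block; the dimmer probe and the counts of lists and motif groups by scaling were added after seeing the data. The number of arrays limits the precision, and with the same arrays the standard error differed by gene, such as 0.04 for Atg13 and 0.30 for Ctsg. Arrays carry no count depth.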

Additional observations from a re-analysis of the deposited data

How the results depend on the processing

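Of the calls for the 63 genes, 19 of 35 for CHIR99021, 22 of 36 for AICAR and 19 of 40 for CHIR99021 against AICAR were made in every one of up to 19 alternative settings that tested the gene. On the spike-in scale 4516 features and 13 genes rose with CHIR99021, 4507 features and 4 genes fell with AICAR, and 4176 features and 7 genes were higher with CHIR99021 than with AICAR; with quantile normalization and with the series matrix values that last count of genes was 13 each. Leaving out each array in turn gave 7 to 10 genes lower with CHIR99021, with 7 without DMSO array 1, lost 2 to 7, 1 to 5 and 0 to 5 of the called genes in the 3 comparisons, and turned the sign of none. Signs turned with AICAR at the dimmer probe, an alternative chosen after seeing the data, for Atg16l2 (-0.12), Atg12 (-0.08) and Atg7 (0.10), and between CHIR99021 and AICAR for Atg9b (normexp, 0.02), Ctsb (quantile -0.08, spike-in -0.05, series matrix -0.09), Lamp2 (dimmer probe 0.19), Ulk1 (quantile -0.22, series matrix -0.23), Atp6v0e (-0.17 and -0.18) and Atp6v1e1 (series matrix -0.01), among values called on either side; the cause was not tested. With normexp 6 of 35, 7 of 36 and 9 of 40 called values moved by over 1.5 times or turned, among them Atp6v1c2, Ctsk, Ctsg and Ctss, and Atg9b with CHIR99021, which was not called, was at 0.04 in place of -0.51; the cause was not tested. A replicate block kept 33 of 35, 34 of 36 and 38 of 40 calls and added 0, 0 and 1. Arrays of the same number did not deviate together (pairing r of -0.05 to 0.09, other pairs -0.13 to 0.11), so the numbers were not treated as pairs. The normexp setting used the median spot signal in place of the mean signal, which is not among the columns used here. It also added an offset of 50 to every signal, where the 75th percentile of the processed signal was 567 to 617. Such an offset makes log2 differences smaller, most of all for dim probes, and its share in the moved values was not tested. A slide block was not run because each slide holds 1 group. For 8 of the 71 genes the signal over background was too low to test.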
